A study of Homo sapiens with 12 samples.

Results

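The phagocyte NADPH oxidase subunits described here are CYBB, CYBA, NCF4 and RAC2, 4 of the 18404 genes that have a probe set annotated to no other gene. The rule names them as subunits of the enzyme, though they were proposed with earlier results of these data known, and each has 1 such probe set (8166730, 8003322, 8072744 and 8075910 in that order). Expression was measured on 12 Affymetrix ST arrays of total RNA from NB4. These human cells, established from acute promyelocytic leukemia, are arrested early in the granulocyte series and resume maturation when given all-trans retinoic acid (ATRA). Control cells were wild type NB4, which carry no vector, with 1 array in each state, and NB4 with a scrambled shRNA, with 2. In knockdown cells a vector for shRNA1 (2 arrays per state) or shRNA2 (1 per state) targeted HOTAIRM1, which is a long noncoding RNA of the HOXA locus. Each of the 6 lines, as the numbered samples are called below, was measured untreated and after 96 hours of 0.5 uM ATRA, which makes 4 arms of 3 arrays. The shRNAs were delivered in a lentiviral vector marked with GFP, and the lines that carry it were sorted for GFP and grown from single cells. Duplicates are called biological replicates, but the labels do not say whether they are separate clones or which untreated and ATRA samples share a culture, so the p values rest on a spread that may be technical in part.

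The phagocyte oxidase moves electrons from NADPH in the cytosol across the membrane onto oxygen and makes superoxide, from which neutrophils form the oxidants that kill microbes. CYBB (gp91phox, also NOX2) is the catalytic subunit, and CYBA (p22phox) is its partner in the membrane. NCF4 (p40phox) belongs to a cytosolic complex that joins them when the cell is stimulated, together with the GTPase RAC2. Loss of CYBB, CYBA or NCF4 causes forms of chronic granulomatous disease, and granulocytic maturation is known to bring a rise in oxidase activity. NCF1 (p47phox), also of that complex, has only probe sets shared with its pseudogenes NCF1B and NCF1C and was not analysed here.

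Promoters are shown because the membrane subunits differ in the motifs near their start sites. The RefSeq table (GRCh38.p14) held CYBB and CYBA, which are printed from 250 bases before the start to the last base before it, 5′ to 3′ on the strand of the gene. Capitals mark matches, on either strand, to 5 motifs. They were GAGGAA, a core bound by PU.1 and other ETS factors, and the motif of interferon regulatory factors, in which GAAA is repeated after 2 bases of any kind. The others were AGGTCA, a half-site of retinoic acid receptors, the SP1 motif GGGCGG and the TATA box TATAAA. NCF4 and RAC2 were not matched in that table.
CYBB, chrX:37779809-37780058, plus strand: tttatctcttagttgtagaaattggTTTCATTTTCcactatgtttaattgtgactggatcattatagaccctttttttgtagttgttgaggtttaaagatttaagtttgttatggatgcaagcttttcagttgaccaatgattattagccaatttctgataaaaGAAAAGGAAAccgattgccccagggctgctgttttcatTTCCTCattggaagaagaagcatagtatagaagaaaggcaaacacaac
CYBA, chr16:88651054-88651303, minus strand: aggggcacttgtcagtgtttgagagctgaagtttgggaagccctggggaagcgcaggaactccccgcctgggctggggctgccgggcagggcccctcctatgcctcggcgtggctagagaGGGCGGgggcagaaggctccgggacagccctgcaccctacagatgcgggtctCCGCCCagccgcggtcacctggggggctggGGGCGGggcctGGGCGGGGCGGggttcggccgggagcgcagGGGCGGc

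In the CYBB window GAGGAA occurred 1 time, on the opposite strand from -48 to -43 relative to the start. The interferon regulatory factor motif occurred 2 times, at -86 to -77 on the gene's strand and at -225 to -216 on the other. The CYBA window held neither motif but had 6 matches to GGGCGG, of which those starting at -37 and -32 overlap by their ends. Neither window held AGGTCA or TATAAA. Among all 35116 promoters of the table, over the same 250 bases, 23.6% held GAGGAA, 3.02% the interferon regulatory factor motif, 12.1% AGGTCA, 42.6% GGGCGG and 10.7% TATAAA. A match describes letters in the window and is not a measurement of binding.

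Before the subunits, the labels were checked. HOTAIRM1 has no probe set with its name in the annotation, so the knockdown itself was not checked here. Of the 7 promyelocyte markers listed, 6 were measured. MPO and PRTN3, enzymes of primary granules, were bright at mean log2 levels of 13.20 to 13.80 and 12.70 to 13.30 over the 4 arms, while the progenitor receptor KIT lay under the lower quartile of all 12 arrays. Array medians ran from 7.73 to 7.81, lower quartiles from 6.38 to 6.49 and array maxima from 14.33 to 14.63; no pair of arrays shared more than 8 identical values. The number of arrays limits the precision.

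The untreated scrambled 2 array stood apart from the other 5 untreated arrays in most of the measured markers of mature neutrophils. This touches the changes below that use untreated control arrays, and the other tests only through the spread that the arms share. Scrambled 2 was the highest untreated array for CYBB, CYBA and RAC2 but not for NCF4. Over all genes, it lay above the other 5 for 22.5%, a share that was not counted for the other arrays. Of 6 measured markers of mature neutrophils it lay above the others for 4. ITGAM, the alpha M integrin, stood at 10.16 there against 7.31 to 8.56, and the growth factor receptor CSF3R at 10.92 against 8.74 to 9.54. The chemokine receptor CXCR2 stood at 8.21 against 6.44 to 7.61 and CEACAM8 at 7.35 against 6.65 to 7.10, while LTF (6.86 against 6.86 to 7.16) and MMP9 (10.23 against 9.13 to 11.90) did not stand above. The mean level of the 6 markers was 8.96 in that array, 7.81 to 8.42 in the other untreated arrays and 8.70 to 9.27 after ATRA. The B cell receptor gene CD79A, singled out after its values were seen, was also high there, at 10.91 against 7.87 to 8.57, and of the 4 measured B cell markers 2 lay above the others, CD79A and the dim MS4A1, while PAX5 lay below. Of 7 T and NK markers 3 lay above, among them NKG7 at 11.76 against 11.02 to 11.51. With ATRA the mean of the 6 measured monocyte and macrophage markers was also higher, with a range of 7.69 to 7.83 over untreated control arrays and 8.24 to 8.33 after ATRA, and of 7.68 to 7.82 and 7.96 to 8.16 in knockdown cells. Of that list CD68 rose by 1.32 in control and by 1.26 in knockdown cells (adjusted p = 6.85e-05 and 0.000156, limma). CSF1R rose by 1.08 and by 0.90 (adjusted p = 0.000845 and 0.00342), and CD163 by 0.48 and by 0.33 (adjusted p = 0.00345 and 0.0321). CD14 changed by 0.71 and 0.23 (adjusted p = 0.0149 and 0.454). FCN1 fell by 0.65 in control and by 0.81 in knockdown cells (adjusted p = 0.00944 and 0.00385, limma), and MRC1 lay under the lower quartile on all arrays. The eosinophil and basophil markers had means of 8.83 to 9.94 untreated and 8.57 to 9.64 after ATRA in control cells. In knockdown cells these were 8.49 to 8.73 and 8.62 to 9.55. For this mean scrambled 1, at 9.94, was the highest untreated array. Among these markers CLC rose by 2.63 and by 5.20 (adjusted p = 0.0106 and 0.000489, limma). HDC changed by -1.70 and -1.71 (adjusted p = 0.0388 and 0.0509, limma), and RNASE2 by -1.04 and -0.50 (adjusted p = 0.0272 and 0.326). No other eosinophil or basophil marker passed. The mature neutrophil markers had ranges of 8.11 to 8.96 untreated and 9.09 to 9.22 after ATRA in control cells, and of 7.81 to 8.41 and 8.70 to 9.27 in knockdown cells. ITGAM had the largest rise among them, by 1.73 and by 2.63 (adjusted p = 0.00656 and 0.000969, limma). MMP9 alone had a negative change in both kinds of cells, of -0.30 and -0.79 (adjusted p = 0.769 and 0.515, limma). The promyelocyte markers ranged from 9.92 to 10.42 untreated and 9.29 to 10.01 after ATRA in control cells, and from 10.23 to 10.54 and 9.83 to 10.15 in knockdown cells. Of these CTSG changed by -1.08 and -2.45 (adjusted p = 0.102 and 0.00356, limma), and no other passed. The T and NK markers ranged from 7.59 to 7.78 and 7.79 to 7.88 in control cells, and from 7.47 to 7.69 and 7.66 to 7.73 in knockdown cells. Of these NKG7 rose by 0.91 and by 1.33 (adjusted p = 0.000675 and 0.000222, limma). CD247 rose by 0.25 in control cells (adjusted p = 0.0356, limma). CD3D changed by -0.51 and -0.98 (adjusted p = 0.285 and 0.0695, limma). Of the B cell markers CD79B fell by 0.53 and by 0.69 (adjusted p = 0.0161 and 0.00535, limma), and no other passed. The part of these differences in the subunits' results was not tested beyond leaving the line out. In bulk RNA, fewer cells of a type and less RNA per cell cannot be told apart.

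CYBB and RAC2 rose with ATRA in control cells, and all 4 subunits rose in knockdown cells. CYBB had the largest change among them in both, 2.11-fold in control and 2.79-fold in knockdown cells. No subunit passed the test between knockdown and control cells in either state, and the ATRA changes did not pass the test of a difference between them. Tests were made with limma on 4 arm means over all genes, with p values adjusted by Benjamini-Hochberg and a threshold of 0.05.

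**Figure D1:**
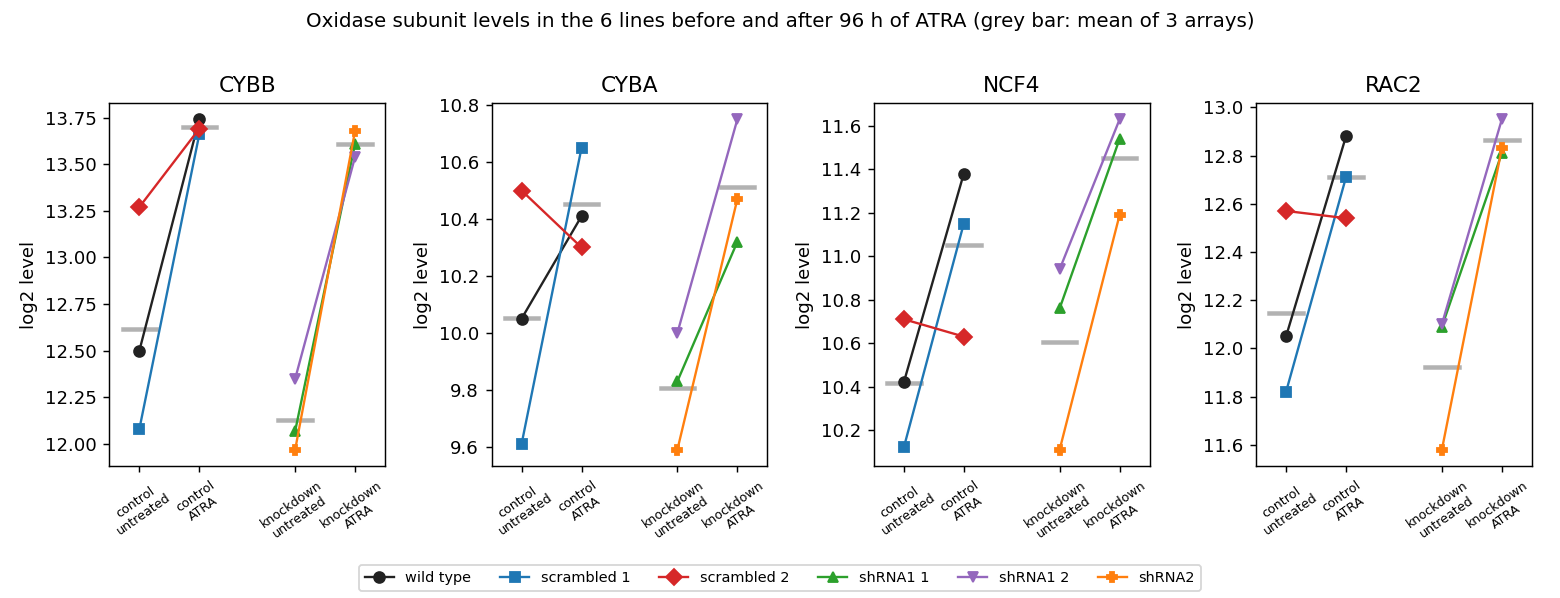
Log2 level (vertical axis, with its own range in each panel) of CYBB, CYBA, NCF4 and RAC2 on the 12 arrays, with a line joining the untreated and ATRA array of each of the 6 lines and a grey bar at the mean of each arm of 3 arrays. Scrambled 2 (red) starts highest of the untreated arrays for CYBB, CYBA and RAC2, and CYBB ends between 13.54 and 13.74 on every ATRA array.

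CYBB, the catalytic subunit, stood at 12.50 in untreated wild type, 12.08 in scrambled 1 and 13.27 in scrambled 2 cells, on the log2 scale of the arrays. After ATRA these lines stood at 13.74, 13.66 and 13.69. In shRNA1 line 1, shRNA1 line 2 and shRNA2 cells CYBB stood at 12.07, 12.35 and 11.97 untreated and at 13.61, 13.54 and 13.68 after ATRA. Every ATRA array lay above every untreated array, in both kinds of cells. The untreated levels spread over 1.18 in control cells and the ATRA levels over 0.08, so the lines lay closer together after ATRA. Relative to the highest value of their own array, the ATRA values lay between -1.01 and -0.77, and whether the top of the scale limits them was not tested.

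CYBB rose by 1.08 with ATRA in control cells (SE 0.22, 95% interval 0.59 to 1.57, adjusted p = 0.00321, limma). Of all 18404 genes, 15.2% were called higher in this comparison. In knockdown cells CYBB rose by 1.48 (SE 0.22, interval 0.99 to 1.97, adjusted p = 0.000894, limma), where 10.1% of all genes were called higher. These calls held without any 1 array, and the change in control cells then ran from 0.81 without untreated scrambled 1 to 1.40 without untreated scrambled 2. Line by line the fold was 2.37 in wild type, 2.98 in scrambled 1, 1.34 in scrambled 2, 2.91 and 2.28 in shRNA1 lines 1 and 2, and 3.26 in shRNA2 cells. The rise was thus seen in 6 of 6 lines, with scrambled 2 the smallest.

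CYBA, the membrane partner of CYBB, stood at 10.05 in untreated wild type, 9.61 in scrambled 1 and 10.50 in scrambled 2 cells, and at 10.41, 10.65 and 10.30 after ATRA. In shRNA1 line 1, shRNA1 line 2 and shRNA2 cells it stood at 9.83, 10.00 and 9.59 untreated and at 10.32, 10.75 and 10.47 after ATRA. Untreated and ATRA arrays overlapped in control cells through scrambled 2 alone, and did not overlap in knockdown cells. The change in control cells was 0.40 (SE 0.20, interval -0.04 to 0.84), which did not pass the test (adjusted p = 0.135, limma). It passed without the scrambled 2 line, at 0.70 (adjusted p = 0.0180), and without untreated scrambled 2 alone, at 0.62 (adjusted p = 0.0178), and was 0.18 without untreated scrambled 1 (adjusted p = 0.449). In knockdown cells CYBA rose by 0.71, or 1.63-fold (SE 0.20, interval 0.27 to 1.14, adjusted p = 0.0222, limma). That call ended without ATRA shRNA1 line 2 (0.59, adjusted p = 0.0906), ATRA shRNA2 (0.73, adjusted p = 0.0545), untreated shRNA1 line 1 (0.72, adjusted p = 0.0522) or untreated shRNA2 (0.60, adjusted p = 0.0890).

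NCF4 encodes p40phox, which binds a phosphoinositide of the phagosome membrane. It stood at 10.42 in untreated wild type, 10.12 in scrambled 1 and 10.71 in scrambled 2 cells, and at 11.38, 11.15 and 10.63 after ATRA. In shRNA1 line 1, shRNA1 line 2 and shRNA2 cells it stood at 10.76, 10.94 and 10.11 untreated and at 11.54, 11.63 and 11.19 after ATRA. Among untreated arrays NCF4 was highest in both shRNA1 lines and lowest in shRNA2 and scrambled 1 cells, a different order from the other subunits. The arms overlapped in control cells, again through scrambled 2, and did not in knockdown cells.

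In control cells the change of NCF4 was 0.64 (SE 0.24, interval 0.11 to 1.16, adjusted p = 0.0565, limma), just outside the threshold. The change passed without the scrambled 2 line, at 0.99 (adjusted p = 0.0114). It also passed without untreated scrambled 2 (0.78, adjusted p = 0.0369), ATRA scrambled 2 (0.85, adjusted p = 0.0215) or untreated shRNA2 (0.64, adjusted p = 0.0305). In knockdown cells NCF4 rose by 0.85, or 1.80-fold (SE 0.24, interval 0.32 to 1.37, adjusted p = 0.0221, limma). This call ended without ATRA shRNA1 line 1 (0.80, adjusted p = 0.0695), ATRA shRNA1 line 2 (0.76, adjusted p = 0.0806) or untreated shRNA2 (0.60, adjusted p = 0.0899).

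RAC2, the GTPase of blood cells that completes the oxidase, stood at 12.05 in untreated wild type, 11.82 in scrambled 1 and 12.57 in scrambled 2 cells, and at 12.88, 12.71 and 12.54 after ATRA. In shRNA1 line 1, shRNA1 line 2 and shRNA2 cells it stood at 12.09, 12.10 and 11.58 untreated and at 12.81, 12.95 and 12.83 after ATRA. The 2 scrambled 2 arrays were nearly level, so the control arms overlapped, while the knockdown arms lay 0.71 apart at their nearest arrays. RAC2 rose by 0.56, or 1.47-fold, in control cells (SE 0.18, interval 0.16 to 0.96, adjusted p = 0.0334, limma). That call ended without ATRA scrambled 1 (0.56, adjusted p = 0.0699), ATRA wild type (0.47, adjusted p = 0.109), untreated scrambled 1 (0.40, adjusted p = 0.115) or untreated wild type (0.51, adjusted p = 0.105), and with arrays centred on their medians (0.50, adjusted p = 0.0643). In knockdown cells RAC2 rose by 0.94, or 1.92-fold (SE 0.18, interval 0.54 to 1.34, adjusted p = 0.00330, limma), a call that held without any 1 array.

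**Figure D2:**
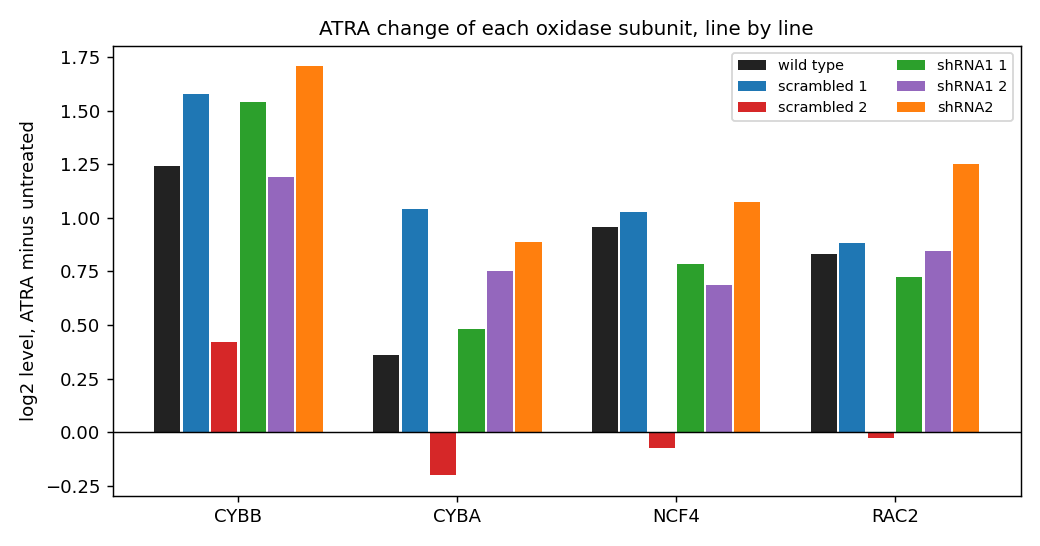
Log2 change with ATRA (ATRA minus untreated array, vertical axis) of each subunit in each of the 6 lines, 1 pair of arrays a bar, without error bars since a line has 1 pair. In scrambled 2 (red) CYBB changed by 0.42 and CYBA, NCF4 and RAC2 by -0.20, -0.08 and -0.03, while all other bars lie above 0. Duplicates of scrambled and shRNA1 cells are matched by number alone.

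The bars of the scrambled and shRNA1 duplicates would differ if untreated and ATRA arrays were matched otherwise, since the labels tie them by number alone. Taken by construct, shRNA2 cells had the largest change for each subunit but stood on 1 pair of arrays. Their fold was 3.26 for CYBB, 1.85 for CYBA, 2.11 for NCF4 and 2.38 for RAC2. Scrambled 1 cells, a control line, came near these values for CYBB (2.98) and NCF4 (2.04) and above them for CYBA (2.05). Across the 3 control lines the SD of the change was 0.60 for CYBB, 0.62 for CYBA, 0.62 for NCF4 and 0.51 for RAC2, and across the 3 knockdown lines 0.26, 0.20, 0.20 and 0.28. The spread among control lines was thus the wider for each subunit. For NCF4 and RAC2 it came from scrambled 2, since wild type and scrambled 1 changed by 0.96 and 1.03 and by 0.83 and 0.88. For CYBB these lines changed by 1.24 and 1.58, and for CYBA by 0.36 and 1.04.

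Of the 4 subunits, 2 were called higher in control cells and 4 in knockdown cells, beside 15.2% and 10.1% of all genes. Without the scrambled 2 line, the count in control cells was 4, and without the wild type arrays it was 1. The 15.2% belongs to the fit with all arrays and is not a background for these counts. Scrambled 2 had the smallest change of each subunit among the control lines, so leaving it out raises each mean change. With all arrays, the median change of the subunits was 0.60 in control and 0.89 in knockdown cells, against 0.05 and -0.03 over all genes. Of all genes, 25.2% had every control ATRA array above every untreated one, as did 1 subunit (CYBB), and 16.7% did so in knockdown cells, as did all 4. With lines matched by number, CYBB was higher after ATRA in each of the 6, as were 12.9% of all genes. The other subunits were higher in 5 of 6, and 27.8% of all genes were so in at least 5.

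The comparison of knockdown with control cells asks whether loss of HOTAIRM1 goes with other oxidase levels. Before ATRA, knockdown minus control was -0.48 for CYBB (95% interval -0.97 to 0.01), -0.25 for CYBA (-0.68 to 0.19), 0.19 for NCF4 (-0.34 to 0.71) and -0.22 for RAC2 (-0.63 to 0.18). None passed (adjusted p = 0.999 each, limma), nor did any of the 18404 genes (0%), of which 727 (3.95%) had an unadjusted p under 0.05. For CYBB the unadjusted p was 0.0525. Leaving out untreated scrambled 2 moved the difference to -0.16 for CYBB, -0.03 for CYBA and -0.01 for RAC2, and that of NCF4 to 0.33. Leaving out untreated scrambled 1 moved it the other way, to -0.75 for CYBB, -0.47 for CYBA and -0.39 for RAC2, and to 0.04 for NCF4. The arms overlapped for each subunit, while 3.75% of all genes had every knockdown array above every control array.

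After ATRA the differences were -0.08 for CYBB (-0.57 to 0.41, adjusted p = 0.837), 0.06 for CYBA (-0.38 to 0.49, adjusted p = 0.869), 0.40 for NCF4 (-0.13 to 0.92, adjusted p = 0.292) and 0.16 for RAC2 (-0.25 to 0.56, adjusted p = 0.600, limma). Of all genes 0.0598% were called in this comparison, 28.1% had an unadjusted p under 0.05 and 14.3% had every knockdown array above every control array, which no subunit did. These intervals leave room for changes in either direction. The upper bound for NCF4 is a 1.89-fold higher level, and the lower bound for CYBB a 0.675-fold level. Without ATRA scrambled 2 the difference of NCF4 was 0.18, and without ATRA wild type 0.56. The sign for CYBA turned without the scrambled 2 line (-0.021), without ATRA shRNA1 line 2 (-0.060) and after quantile normalization (-0.032).

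ATRA changes in knockdown cells exceeded those in control cells by 0.40 for CYBB (-0.29 to 1.09, adjusted p = 0.522), 0.31 for CYBA (-0.31 to 0.92, adjusted p = 0.584), 0.21 for NCF4 (-0.53 to 0.95, adjusted p = 0.763) and 0.38 for RAC2 (-0.19 to 0.95, adjusted p = 0.467, limma). None passed the test, as for all genes (0% called, 15.3% with an unadjusted p under 0.05). Leaving out the scrambled 2 line moved the differences to 0.07 for CYBB, 0.0059 for CYBA, -0.15 for NCF4 and 0.08 for RAC2. Without untreated scrambled 1 they were 0.67, 0.53, 0.36 and 0.54 in the same order. A call in knockdown cells and none in control cells, as for CYBA and NCF4, was thus not shown to be a difference between the cells.

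**Figure D3:**
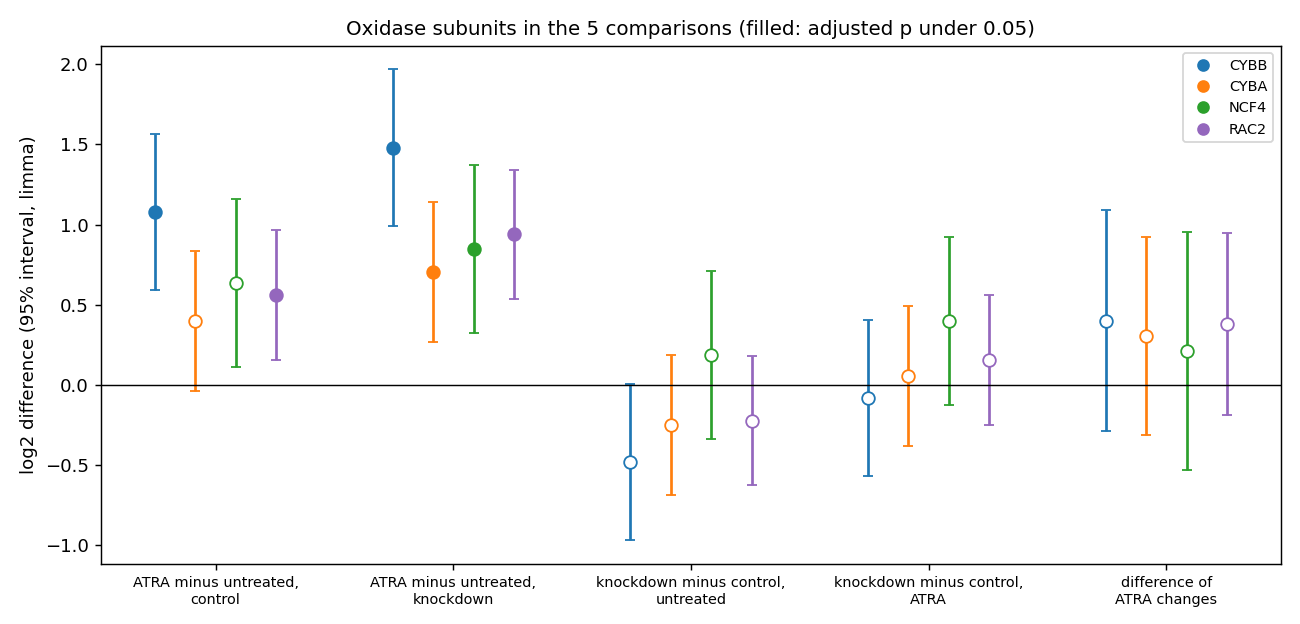
Log2 differences of the 4 subunits (points) with 95% intervals from limma (bars) in the 5 comparisons, filled where the adjusted p is under 0.05. The filled points are CYBB and RAC2 with ATRA in control cells and all 4 subunits in knockdown cells, and the intervals of the other 3 comparisons all include 0.

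In order of level, CYBB was highest in control ATRA (13.69 ± 0.04, SD, n = 3) and knockdown ATRA arrays (13.61 ± 0.07), then control untreated (12.61 ± 0.60) and knockdown untreated (12.13 ± 0.20). CYBA lay at 10.51 ± 0.22 in knockdown ATRA, 10.45 ± 0.18 in control ATRA, 10.05 ± 0.44 in control untreated and 9.80 ± 0.21 in knockdown untreated arrays (SD, n = 3). RAC2 had the same order as CYBA, at 12.86 ± 0.08, 12.71 ± 0.17, 12.15 ± 0.38 and 11.92 ± 0.30. NCF4 lay at 11.45 ± 0.23 in knockdown ATRA and 11.05 ± 0.38 in control ATRA arrays, but untreated knockdown cells (10.60 ± 0.43) stood above untreated control cells (10.42 ± 0.29). For each subunit, the 2 arms within a state overlapped and their difference did not pass the test.

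The genes with the most similar course over the 12 arrays were found by the root mean square difference between log2 profiles, each centred on its own mean. For RAC2 these were VAV1, a guanine nucleotide exchange factor (0.09), the ubiquitin ligase CBL (0.09) and ZFAND6 (0.09). For CYBA they were PIK3CD, a catalytic subunit of phosphoinositide 3-kinase in leukocytes (0.09), EFR3A (0.10) and MTMR14 (0.11), and for CYBB ANKRD44 (0.12), the sugar epimerase GALM (0.12) and the kinase HIPK2 (0.13). NCF4 had no profile as close, with GRK3, a receptor kinase (0.18), PARVG (0.19) and STRA6, a receptor for retinol-binding protein (0.20). Among the subunits themselves, CYBA and RAC2 were the closest (0.16), and CYBB and NCF4 were the farthest apart (0.47). By place among the 18403 genes ranked, RAC2 stood at 67 for CYBA but at 13 for NCF4 (0.22). The differences were not scaled by a gene's own SD over the arrays. That SD was 0.74 for CYBB, 0.39 for CYBA, 0.51 for NCF4 and 0.46 for RAC2. All profiles share the same arrays and the split by ATRA, so these values are a description.

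The other parts of the oxidase moved with ATRA as follows. Of 3 further genes of the complex and its assembly, 2 rose in both kinds of cells, as did 6.47% of all genes. RAP1A, a GTPase found with the membrane subunits, rose by 0.52 in control (SE 0.12, adjusted p = 0.00487, limma) and by 0.52 in knockdown cells (adjusted p = 0.00639, and 0.0549 without the shRNA2 arrays). CYBC1, a chaperone needed to make the CYBB and CYBA dimer, rose by 0.42 (SE 0.08, adjusted p = 0.00302) and by 0.43 (adjusted p = 0.00339). RAC1, the more widely expressed relative of RAC2, was measured by a probe set annotated to 1 transcript record only, and its changes of -0.02 and 0.63 did not pass (adjusted p = 0.947 and 0.0674), the first turning to 0.28 without the scrambled 2 line. The second passed without that line (adjusted p = 0.0375), ATRA scrambled 2 (0.0400) or untreated scrambled 1 (0.0443). Relatives of CYBB act in other tissues. Of 8 measured NOX and DUOX genes and their partners, 2 were called higher in control cells, where 15.2% of all genes were. NOX4 (0.39, adjusted p = 0.0140) and NOXA1 (0.30, adjusted p = 0.0219) rose in control cells, and 0 were called in knockdown cells (10.1% of all genes higher, 14.7% lower). NOX4 lay at 5.75 to 6.14 in the arm means, under the lower quartiles of the arrays. Both calls ended without untreated wild type (adjusted p = 0.0618 and 0.0713) or ATRA wild type (0.0545 and 0.0875), and that of NOXA1 also without untreated scrambled 2 (0.0574) or ATRA scrambled 1 (0.0570).

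Of 8 measured genes that supply NADPH, the electron donor of the enzyme, 3 rose in control and 3 in knockdown cells, where 15.2% and 10.1% of all genes did. None fell (20.9% and 14.7% of all genes), and the list had medians of 0.29 and 0.61 against 0.05 and -0.03 over all genes. PGD, a dehydrogenase of the pentose phosphate pathway, rose by 0.71 in control (SE 0.16, adjusted p = 0.00485, limma) and by 1.12 in knockdown cells (adjusted p = 0.000632). TKT, the transketolase of that pathway, rose by 0.51 (adjusted p = 0.0382) and by 1.09 (adjusted p = 0.00113), and NADK, which makes NADP from NAD, by 0.88 (adjusted p = 0.00341) and by 0.998 (adjusted p = 0.00239). The call of TKT in control cells ended in 8 of the 12 fits without 1 array, with adjusted p from 0.0502 to 0.130, and with median-centred arrays (0.0753). That of PGD ended without the wild type arrays (0.58, adjusted p = 0.0701). The transaldolase TALDO1 changed by -0.20 and -0.18 and did not pass (adjusted p = 0.0675 and 0.138, limma). In control cells it passed with median-centred arrays (-0.27, adjusted p = 0.0236), with array weights (adjusted p = 0.0392) and without ATRA scrambled 1 (adjusted p = 0.0446).

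Among genes that remove superoxide and peroxide, more fell than rose. Of 19 measured, 10 fell and 1 rose in control cells, and 8 fell and 0 rose in knockdown cells, where 20.9% and 14.7% of all genes were called lower. SOD1, the cytosolic superoxide dismutase, fell by 1.46 in control (SE 0.24, adjusted p = 0.000799, limma) and by 1.25 in knockdown cells (adjusted p = 0.00293). The peroxiredoxins, which reduce peroxides, fell with it, PRDX1 by 0.89 and by 1.03 (adjusted p = 0.00206 and 0.00136), PRDX3 by 0.66 and by 0.61 (adjusted p = 0.000409 and 0.00108) and PRDX4 by 0.98 and by 1.07 (adjusted p = 0.00658 and 0.00529, the second 0.0643 without the shRNA2 arrays). Without untreated or ATRA shRNA2 the count lower in knockdown cells was 5 each. The median change over the list was -0.44 in control and -0.30 in knockdown cells.

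Of 16 measured GTPases and their regulators, 3 rose and 4 fell in control cells, where the shares over all genes were 15.2% higher and 20.9% lower. In knockdown cells 2 rose and 4 fell, beside 10.1% and 14.7% of all genes. VAV1, which loads RAC proteins with GTP in blood cells, rose by 0.55 in control (SE 0.16, adjusted p = 0.0202, limma) and by 0.95 in knockdown cells (adjusted p = 0.00147). Its relative VAV2 fell by 0.70 and by 0.69 (adjusted p = 0.00157 and 0.00252), RAC3 by 0.82 and by 0.58 (adjusted p = 0.00493 and 0.0358), and BCR, a RAC regulator, by 0.53 and by 0.86 (adjusted p = 0.00414 and 0.000540). VAV1 lost its call in control cells without any 1 of the wild type or scrambled 1 arrays (adjusted p from 0.0573 to 0.0692), and RAC3 its call in knockdown cells without any knockdown array but untreated shRNA2 (0.0614 to 0.132). In control cells 1 gene was higher without untreated or ATRA wild type or untreated scrambled 1. In knockdown cells 4 were higher without untreated scrambled 2, and 1 without untreated or ATRA shRNA1 line 1 or shRNA2. Those lower there were 2 without untreated shRNA1 line 2 or any ATRA knockdown array.

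The 18 measured genes of the next list are kinases and lipid enzymes that act on the oxidase, with the proton channel HVCN1. Of them 2 rose and 4 fell in control cells, and 5 rose and 2 fell in knockdown cells. HVCN1 changed by -0.80 in control and by -1.50 in knockdown cells (adjusted p = 0.076 and 0.00577, limma). Of all genes 15.2% were higher and 20.9% lower in control cells, and 10.1% and 14.7% in knockdown cells. PIK3R5, a regulatory subunit of phosphoinositide 3-kinase gamma, rose by 0.70 in control (SE 0.19, adjusted p = 0.0159, limma) and by 1.19 in knockdown cells (adjusted p = 0.00129), and the phospholipase PLD1 by 1.03 and by 0.70 (adjusted p = 0.00110 and 0.0132). PRDX6, a peroxiredoxin with phospholipase activity, fell by 0.96 and by 0.79 (adjusted p = 0.000123 and 0.000624). The kinase AKT1 fell by 0.49 in control cells (adjusted p = 0.000910) and changed by -0.20 in knockdown cells (adjusted p = 0.114). PIK3R5 lost its call in control cells without untreated wild type (adjusted p = 0.0714), ATRA wild type (0.0590) or untreated scrambled 1 (0.0582), and PLD1 in knockdown cells without ATRA shRNA2 (0.0591). Of the list, 5 rose in control cells without untreated scrambled 2 and 1 without untreated wild type or scrambled 1, and 3 rose in knockdown cells without ATRA shRNA2.

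Of 12 measured transcription factors and chromatin proteins known to act on oxidase genes, control cells showed 4 higher and 2 lower, and knockdown cells 6 higher and 2 lower. In control cells 8 rose without untreated scrambled 2 and 1 without untreated or ATRA wild type. Beside these stand 15.2% of all genes higher and 20.9% lower in control cells, and 10.1% and 14.7% in knockdown cells. IRF2 rose by 0.83 in control (SE 0.16, adjusted p = 0.00185, limma) and by 0.81 in knockdown cells (adjusted p = 0.00294). IRF8, an activator of CYBB, rose by 1.27 in control cells (SE 0.35, adjusted p = 0.0156) and changed by 0.91 in knockdown cells (adjusted p = 0.0842), where it passed with array weights (0.0359) and without ATRA wild type (0.0259), ATRA scrambled 2 (0.0481) or ATRA shRNA1 line 1 (1.22, adjusted p = 0.0381). CEBPA fell by 0.84 and by 0.59 (adjusted p = 0.000223 and 0.00257), and SATB1, a chromatin organiser, by 0.42 and by 0.85 (adjusted p = 0.0376 and 0.00153). IRF8 lost its call without untreated wild type (adjusted p = 0.0656) or ATRA wild type (0.0525), and SATB1 its call in control cells without untreated wild type (0.151), untreated shRNA1 line 2 (0.0501), ATRA wild type (0.133) or ATRA scrambled 1 (0.0711) and with quantile normalization (-0.28, adjusted p = 0.164). SPI1, which encodes PU.1 and was singled out after its values were seen, rose by 0.56 in control and by 0.79 in knockdown cells (adjusted p = 0.0159 and 0.00328), and stood at 11.71 in untreated scrambled 2 against 10.97 to 11.18 in the other untreated arrays.

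**Figure D4:**
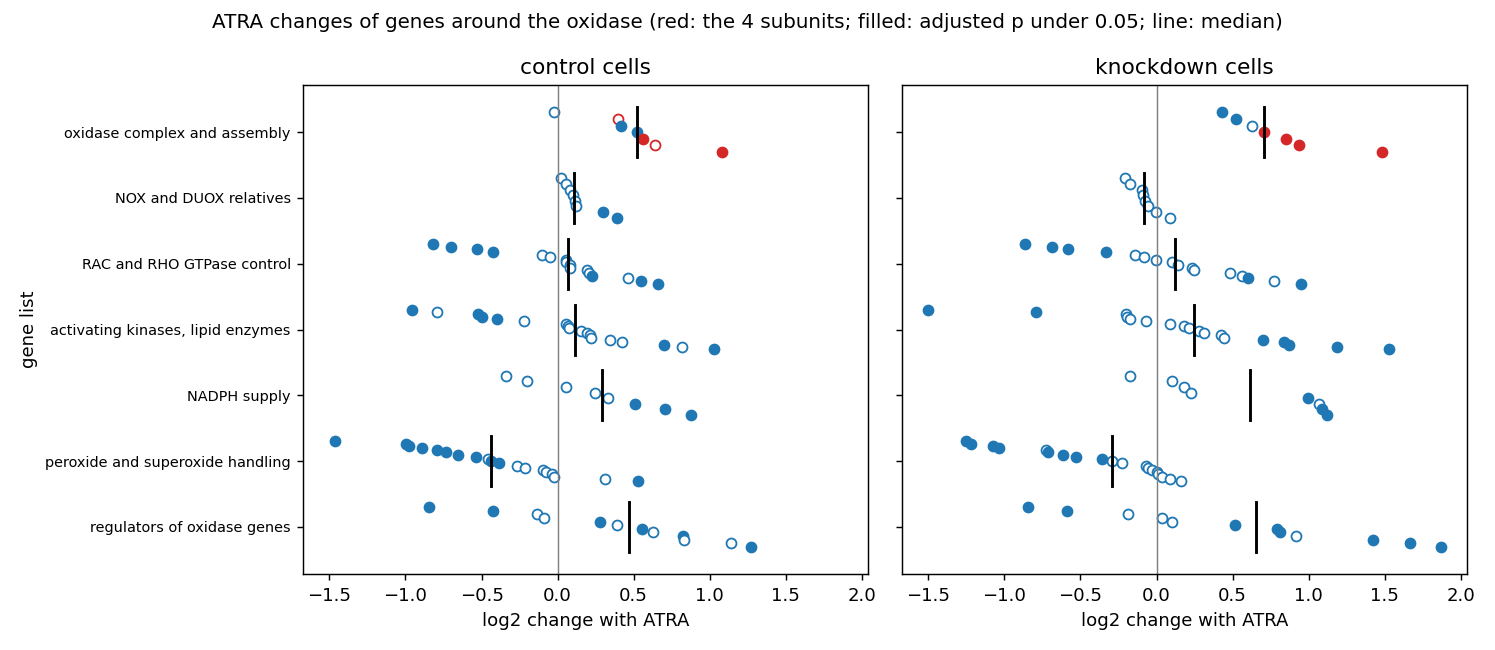
Log2 change with ATRA (horizontal axis) of each measured gene of 7 lists around the oxidase, in control (left) and knockdown cells (right), with the 4 subunits in red, filled points where the adjusted p is under 0.05 and a black line at the list's median. The complex list has its median at 0.52 and 0.71, and the peroxide and superoxide list at -0.44 and -0.30.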

How the data were processed

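The deposited table holds log2 values of 32321 probe sets on 12 arrays. Per the submitters' processing notes, RMA and limma were used, and no version or setting was given. Labelling used a whole-transcript cDNA kit, per the labels' protocols. The values were taken as deposited. Genes were named from probe sets annotated to 1 gene (19158, against 1388 with several and 11775 not listed), matched by Entrez identifier, and the probe set with the highest mean was kept. The model was limma 3.58.1 in R 4.3.3 on 4 arm means, with 8 residual degrees of freedom and two-sided p values, and was checked on simulated data. The members, lists and tests were chosen with earlier results of these data known. From each list of genes around the oxidase, 4 were named by the smallest p with ATRA, 2 in each kind of cell and the rest filled from control cells. HVCN1 and SPI1 were named outside this rule. All measured genes of the complex list were named. The 3 nearest profiles were named for each subunit. Alternatives were other normalizations, the line as a block, array weights, a variance trend, no dim genes, mean probe sets and arrays or lines left out. Untreated and ATRA arrays of a line were matched by construct and number for the line-by-line values and the block.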

Additional observations from a re-analysis of the deposited data

How the results depend on the processing

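CYBB kept its ATRA call in both kinds of cells under every alternative, as RAC2 did in knockdown cells. In control cells CYBA passed after quantile normalization (0.54, adjusted p = 0.0465), with array weights (0.48) and without the scrambled 2 line (0.70), and NCF4 after quantile normalization (0.77), with array weights (0.66), without the dimmest genes (0.64), without the shRNA2 arrays (0.64), without the scrambled 2 line (0.99) and with the line as a replicate block (0.64, adjusted p = 0.0433). The block, a paired comparison, changed no other subunit's call. With it 1 gene of the GTPase list rose in knockdown cells, against 2, and 1 regulator fell in control cells, against 2. TKT (adjusted p = 0.0573) and SATB1 (0.0894) lost their calls in control cells. The labels tie duplicates across states by number alone. Deviations from the arm means, over genes, correlated within lines at -0.173, -0.108 and 0.193 in wild type, scrambled 1 and scrambled 2 cells. Between unlike control lines they correlated at -0.286 to 0.325, so not every control line paired. In knockdown cells the correlations were 0.161, 0.226 and 0.119 within lines and -0.162 to -0.002 between unlike lines. The block was fitted with limma and has 4 residual degrees of freedom. RAC2 lost its call in control cells with median-centred arrays (0.50) and without the wild type arrays (0.43). Of the 4 subunits, the number called in control cells was 1 with median-centred arrays or without the wild type arrays, and 4 after quantile normalization, with array weights or without the scrambled 2 line. Without the shRNA2 arrays 2 were called in knockdown cells, CYBA (0.62) and NCF4 (0.74) losing their calls. Leaving out 1 array gave 1 to 4 calls in control and 2 to 4 in knockdown cells, with changes of 0.18 to 0.62 for CYBA, 0.48 to 0.85 for NCF4 and 0.40 to 0.77 for RAC2 in control cells, and of 0.59 to 0.80 for CYBA and 0.60 to 1.02 for NCF4 in knockdown cells.

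Knockdown minus control after ATRA turned for CYBA to -0.032 with quantile normalization, -0.0043 with array weights and -0.021 without the scrambled 2 line, and ran from -0.060 to 0.16 without 1 array. The difference of the ATRA changes of NCF4 turned to -0.15 without the scrambled 2 line and ran from -0.034 to 0.38 without 1 array. The ATRA change of RAC1 in control cells turned to 0.28 without the scrambled 2 line and 0.048 without the wild type arrays, and ran from -0.23 to 0.20 without 1 array. That of DUOXA2 turned from 0.08 to -0.0015 with quantile normalization.

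Over all genes, the count called higher with ATRA in control cells was 2800, and 1752 with median-centred arrays, 4450 with array weights, 983 without the wild type arrays and 1549 to 2762 without 1 array. The count called lower was 3844, and 2477 without the wild type arrays. Without the shRNA2 arrays, 980 were higher and 1338 lower in knockdown cells. Between knockdown and control cells after ATRA, 10 were higher and 1 lower, against 331 and 73 with median-centred arrays, 383 and 313 with array weights, 44 and 19 without the dimmest genes, 11 lower with quantile normalization, 3 lower with a variance trend, and 0 and 0 without the scrambled 2, wild type or shRNA2 arrays. Without 1 array these ran from 0 to 420 higher and 0 to 281 lower. The causes were not tested, except that fewer samples or genes entered the fits that left some out.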
